A study of Mus musculus with 11 samples.

Results

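Collagen genes were followed through left ventricles of adult and newborn mice, with and without heart-directed expression of HMGN5, a protein that binds nucleosomes and loosens chromatin. A gene counted as a collagen when its symbol had the form Col, number, a, number (such as Col1a1) and its probe set carried exactly 1 symbol in the platform annotation. Each gene was read by its probe set with the highest mean over the 11 arrays. This gave 42 collagen genes, covered by 82 probe sets, among 18194 genes in all. They comprised 11 fibrillar, 6 basement membrane, 5 beaded filament, 3 network and 1 anchoring collagen, 9 FACITs, 2 multiplexins, 4 transmembrane collagens and 1 other collagen, Col26a1. Of the 42 genes, 34 lay above their array's 40th percentile on 2 or more arrays. The other 8 were Col2a1, Col6a4, Col6a5, Col10a1, Col11a2, Col17a1, Col19a1 and Col24a1.

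In the transgenic line, a FLAG-tagged mouse Hmgn5 cDNA of full length followed a LacZ cassette flanked by loxP sites under the CAG promoter. Breeding to alphaMHC-cre mice, in which cre is made in heart muscle cells, removed LacZ. The controls were labelled wild-type, all mice had a C57BL/6 background, and the transgenic mice alone carried cre, so cre and Hmgn5 cannot be told apart. Exact ages beyond adult and newborn, the sex of the animals and the number of founder lines were not given in the sources used here. Adult hearts numbered 3 transgenic and 3 control, and newborn hearts 3 transgenic and 2 control, each labelled as a biological replicate on 1 Affymetrix array.

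Collagens are secreted as trimers of alpha chains wound into a helix. Fibrillar collagens assemble into the fibres that give the heart wall its tensile strength, and FACITs (fibril-associated collagens with interrupted helices) sit on the surface of those fibres. Type 4 chains form the sheet-like networks of basement membranes around muscle cells and vessels, type 6 forms beaded filaments, and type 8 forms open lattices in vessel walls. In the heart most fibrillar collagen comes from fibroblasts, whereas the alphaMHC promoter is active in muscle cells. Chains are hydroxylated and folded in the endoplasmic reticulum, trimmed outside the cell and cross-linked by lysyl oxidases.

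Many collagen promoters are known to carry a CCAAT box, the binding site of the factor NF-Y. It is shown for 3 members, Col1a2, Col11a1 and Col16a1, because 1 of them rose in transgenic adults and all 3 were lower in adult than in newborn controls. The windows come from RefSeq (build GRCm38.p6), lie before the annotated start and are written 5′ to 3′ on the gene's strand. Capitals mark the motif, which was searched as CCAAT on both strands and so reads ATTGG where it lies on the opposite strand.
Col1a2, chr6:4505497-4505526, plus strand: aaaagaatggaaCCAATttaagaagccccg
Col11a1, chr3:114030449-114030478, plus strand: gggaggcctgtgATTGGgtatgaccttcag
Col16a1, chr4:130047715-130047744, plus strand: cggcggtgcaggCCAATggccagtgcctcc
The motif began 109 bases before the start of Col1a2, 79 before that of Col11a1 and 113 before that of Col16a1. RefSeq windows of 250 bases before to 50 after the start were matched for 33 of the 42 genes (36 windows). CCAAT was present in 13 of these 36 windows (36.1%), a share close to the 37.4% of all 32851 promoter windows. Of the 5 collagens that rose in transgenic adults, 3 had a window and 1 of these, Col11a1, held the motif. These matches describe letters in a window, not bound sites.

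Values are log2 expression as deposited, and array medians were 5.12 to 5.18. Replicate 3 of both adult groups stood apart: its 18S ribosomal RNA control probe sets read 12.18 on the transgenic and 11.89 on the control array, against 7.64 to 8.58 on the other adult arrays and 10.05 to 10.53 on newborn arrays. The nuclear transcript Malat1 moved with it. Adult results are therefore also given without these arrays, and age cannot be told apart from array processing. The Hmgn5 probe set read 8.29, 8.26 and 8.71 in transgenic adults, against 8.44, 8.77 and 8.52 in control adults. It read 8.56, 8.84 and 8.69 in transgenic newborns and 8.85 and 8.81 in control newborns. It does not check the labels, because the part of the transcript that it reads is not given in the sources used here. Mean log2 levels of 8 cardiomyocyte markers were 13.26 to 13.61 on all arrays.

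In adults, 5 of 42 collagen genes (11.9%) were higher in transgenic than in control hearts and 0 were lower, at a limma adjusted p under 0.05. Over all 18194 genes, 7.09% were called in either direction and 4.16% as higher. The median collagen difference was 0.22 log2 units, beside 0.00 over all genes, and the differences ranged from -0.53 (Col5a3) to 2.74 (Col8a1). Groups of arrays did not overlap for 10 collagens, all higher in transgenic hearts, where 10.0% of all genes behaved in that way. The genes that rose were both chains of the type 8 network, the fibrillar chains Col5a2 and Col11a1, and the basement membrane chain Col4a3. The major interstitial chains Col1a1, Col1a2 and Col3a1 did not pass the test with all arrays in the fit. In tissue RNA, more cells of a type and more RNA per cell cannot be told apart. With the 6 adult arrays alone in the fit, 2 collagens rose, Col8a1 and Col5a2, where 1.41% of all genes were higher. Without transgenic replicate 1, or without control replicate 2, the calls of Col8a2 and Col4a3 were lost.

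**Figure D1:**
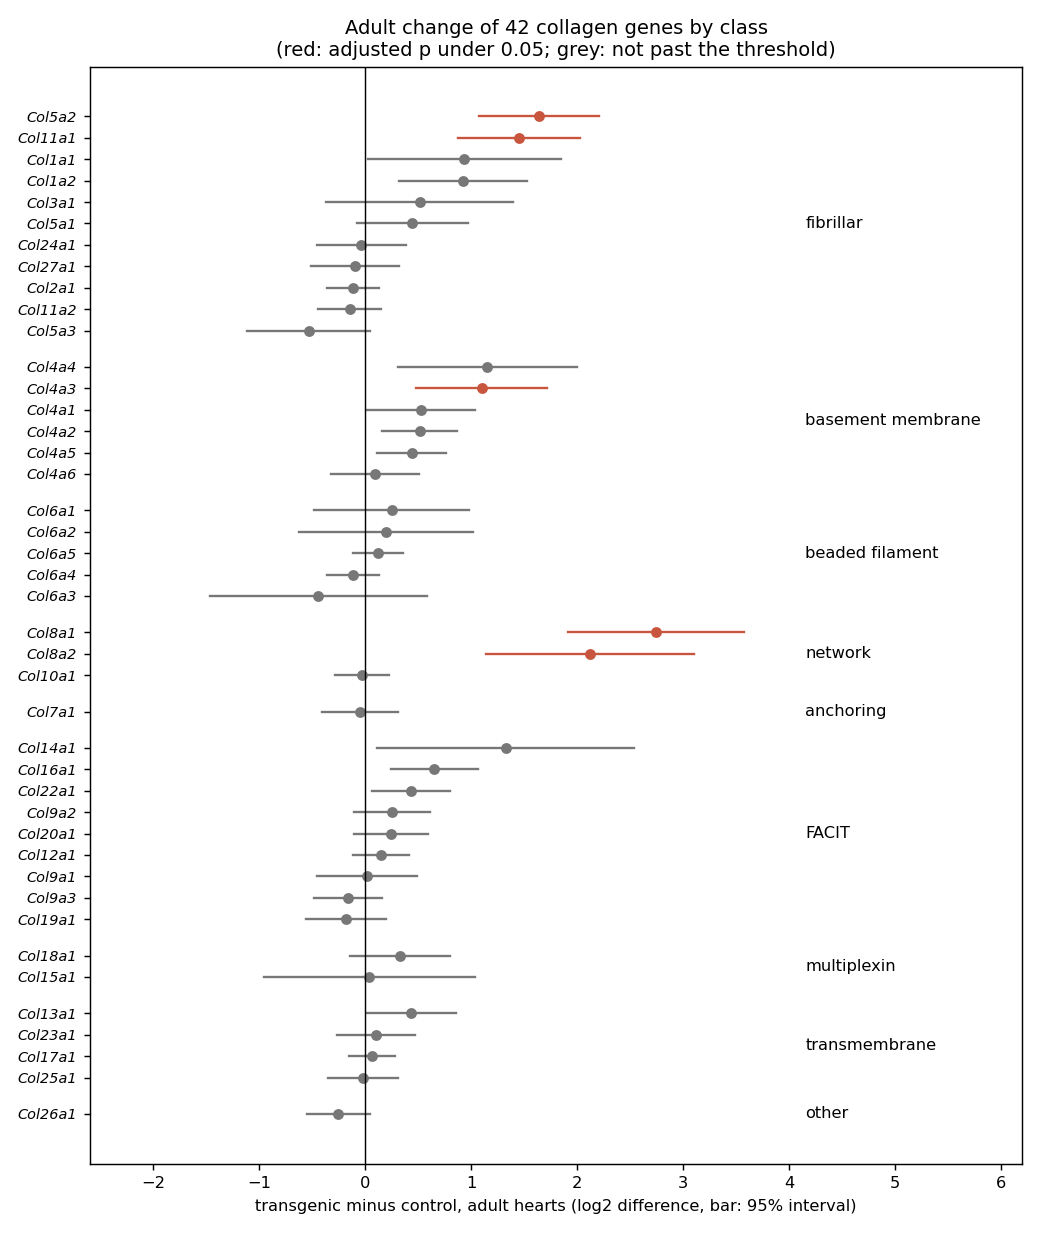
Differences between transgenic and control adult hearts (x axis, log2 units) for the 42 collagen genes, grouped by class down the y axis. Points are differences of group means and bars are 95% intervals from limma, with the 5 genes past the threshold in red. The 2 type 8 chains stand farthest to the right, at 2.74 and 2.12.

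The 2 type 8 network chains had the largest differences of the 42 genes. Col8a1, 1 chain of a short collagen known from vessel walls and the cornea, read 11.12, 11.37 and 10.58 in transgenic adults and 8.87, 7.58 and 8.38 in control adults. Every transgenic array was above every control array, and the difference was 2.74 (SE 0.38, 6.70-fold, adjusted p = 0.00181). Its partner chain Col8a2 read 6.16, 6.97 and 4.61 in transgenic adults and 4.09, 3.50 and 3.80 in control adults. All its control adult values lay below their arrays' 40th percentiles (4.56 to 4.60). Transgenic replicate 3 stood just above its own (4.59), so the fold change is taken from the low part of the scale. Again no arrays overlapped, although the transgenic array with high 18S signal came closest to the controls (2.12, SE 0.45, 4.35-fold, adjusted p = 0.0156). Col10a1, the third network gene and a product of hypertrophic cartilage, did not pass the filter on low values and differed by -0.03. The rise in Col8a1 was not distinguishable from that in Col8a2: the arrays' Col8a1 minus Col8a2 values differed by 0.62 between the groups (exact permutation test, 2-sided, p = 0.4, where 3 against 3 arrays cannot go below 0.1).

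Among the 11 fibrillar genes, 2 rose, 0 fell and 9 did not pass, with a median of 0.45. Col5a2, a chain of the type 5 collagen that nucleates fibrils and limits their width, read 10.39, 10.48 and 9.80 in transgenic adults and 8.92, 7.99 and 8.86 in control adults. The groups were fully separate (1.64, SE 0.26, 3.11-fold, adjusted p = 0.00353). Col11a1, whose type 11 product is best known from cartilage fibrils, read 4.97, 5.63 and 4.35 in transgenic adults and 3.62, 3.56 and 3.43 in control adults. All control arrays lay in a narrow low band, below all transgenic arrays (1.45, SE 0.26, 2.73-fold, adjusted p = 0.00757). Its control adult values and transgenic replicate 3 were below their arrays' 40th percentiles (4.56 to 4.60). Their partner chains gave smaller differences: 0.45 for Col5a1 (adjusted p = 0.341) and -0.15 for Col11a2, which did not pass the filter on low values. The arrays' Col5a2 minus Col5a1 values differed by 1.19 between the groups, and Col11a1 minus Col11a2 values by 1.59, without overlap. For each pair p was 0.1 (exact permutation test), the smallest that 3 against 3 arrays allow. Col6a3 minus Col6a1 also differed without overlap (-0.69, exact permutation test, p = 0.1). This test cannot go under 0.05, and the pairs were chosen with earlier results known. The partner chains are thus not shown to differ.

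Col1a1 and Col1a2 encode the chains of type 1 collagen, the main load-bearing fibre of the heart. Col1a1 read 8.73, 8.89 and 8.12 in transgenic adults and 8.20, 6.42 and 8.31 in control adults, and the groups overlapped (0.94, SE 0.41, adjusted p = 0.233). Col1a2 read 11.43, 11.34 and 11.08 in transgenic adults and 10.39, 9.67 and 11.02 in control adults. The groups did not overlap, but by a narrow margin (0.92, SE 0.27, adjusted p = 0.0711). Another Col1a2 probe set did pass, at 1.66 (adjusted p = 0.0239 over all probe sets). Col3a1, the more extensible partner fibre, read 12.13, 12.32 and 10.94 in transgenic adults and 11.35, 10.44 and 12.08 in control adults. Here the order of the groups turned in replicate 3, and the difference was 0.51 (SE 0.40, adjusted p = 0.567). The other fibrillar genes, Col2a1, Col5a3, Col24a1 and Col27a1, had differences between -0.53 and -0.04. Col3a1, and Col14a1 below, are given by array because of their replicate 3 values, a choice made after the values were seen.

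All 6 basement membrane genes were nominally higher in transgenic adults, with a median of 0.52, but 1 passed. Col4a3, which with Col4a4 and Col4a5 forms the network known from the glomerular basement membrane, read 6.59, 6.85 and 5.68 in transgenic adults and 5.68, 4.81 and 5.33 in control adults. The lowest transgenic array equalled the highest control array to 2 decimals, and the difference was 1.10 (SE 0.28, 2.14-fold, adjusted p = 0.0395). This call was the least stable of the 5 and held in 9 of 19 alternative fits. Col4a4, with 7.93, 8.46 and 7.02 in transgenic adults and 6.91, 5.95 and 7.10 in control adults, differed by a similar 1.15 but with overlap (SE 0.38, adjusted p = 0.106). Col4a5 differed by 0.44 (limma adjusted p = 0.109). Another Col4a5 probe set, of lower level, did pass, at 0.80 (limma adjusted p = 0.0240 over all probe sets). Col4a1 and Col4a2, the chains found in nearly all basement membranes, differed by 0.53 (adjusted p = 0.228) and 0.51 (adjusted p = 0.0851), and Col4a6 by 0.09.

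None of the 9 FACITs passed the test; their median difference was 0.24. Col14a1, which binds the fibril surface, read 8.97, 9.22 and 6.65 in transgenic adults and 6.64, 6.62 and 7.60 in control adults. In replicates 1 and 2 the transgenic arrays were far higher, and in replicate 3 lower (1.33, SE 0.55, adjusted p = 0.201). Col16a1 (0.65, adjusted p = 0.0605) and Col22a1, found at tissue junctions (0.43, adjusted p = 0.171), had separate groups without passing. Col12a1, found in load-bearing tissue, depended on the probe set. The probe set used had a difference of 0.15 (adjusted p = 0.636 in the fit of all probe sets), whereas another probe set rose by 2.45 (SE 0.41, adjusted p = 0.00924). The 4 probe sets of this gene thus disagree.

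The remaining classes held no call. The 5 type 6 genes of the beaded filaments had a median of 0.12, with Col6a3 at -0.44. The multiplexins, proteoglycan-like collagens at basement membranes, differed by 0.33 (Col18a1, the source of endostatin) and 0.04 (Col15a1). Of the 4 transmembrane genes Col13a1 was highest at 0.44 (adjusted p = 0.234), the anchoring fibril gene Col7a1 differed by -0.05 and Col26a1 by -0.25. Other probe sets were available for 4 of the 5 genes that rose, and all 5 of these probe sets also rose.

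**Figure D2:**
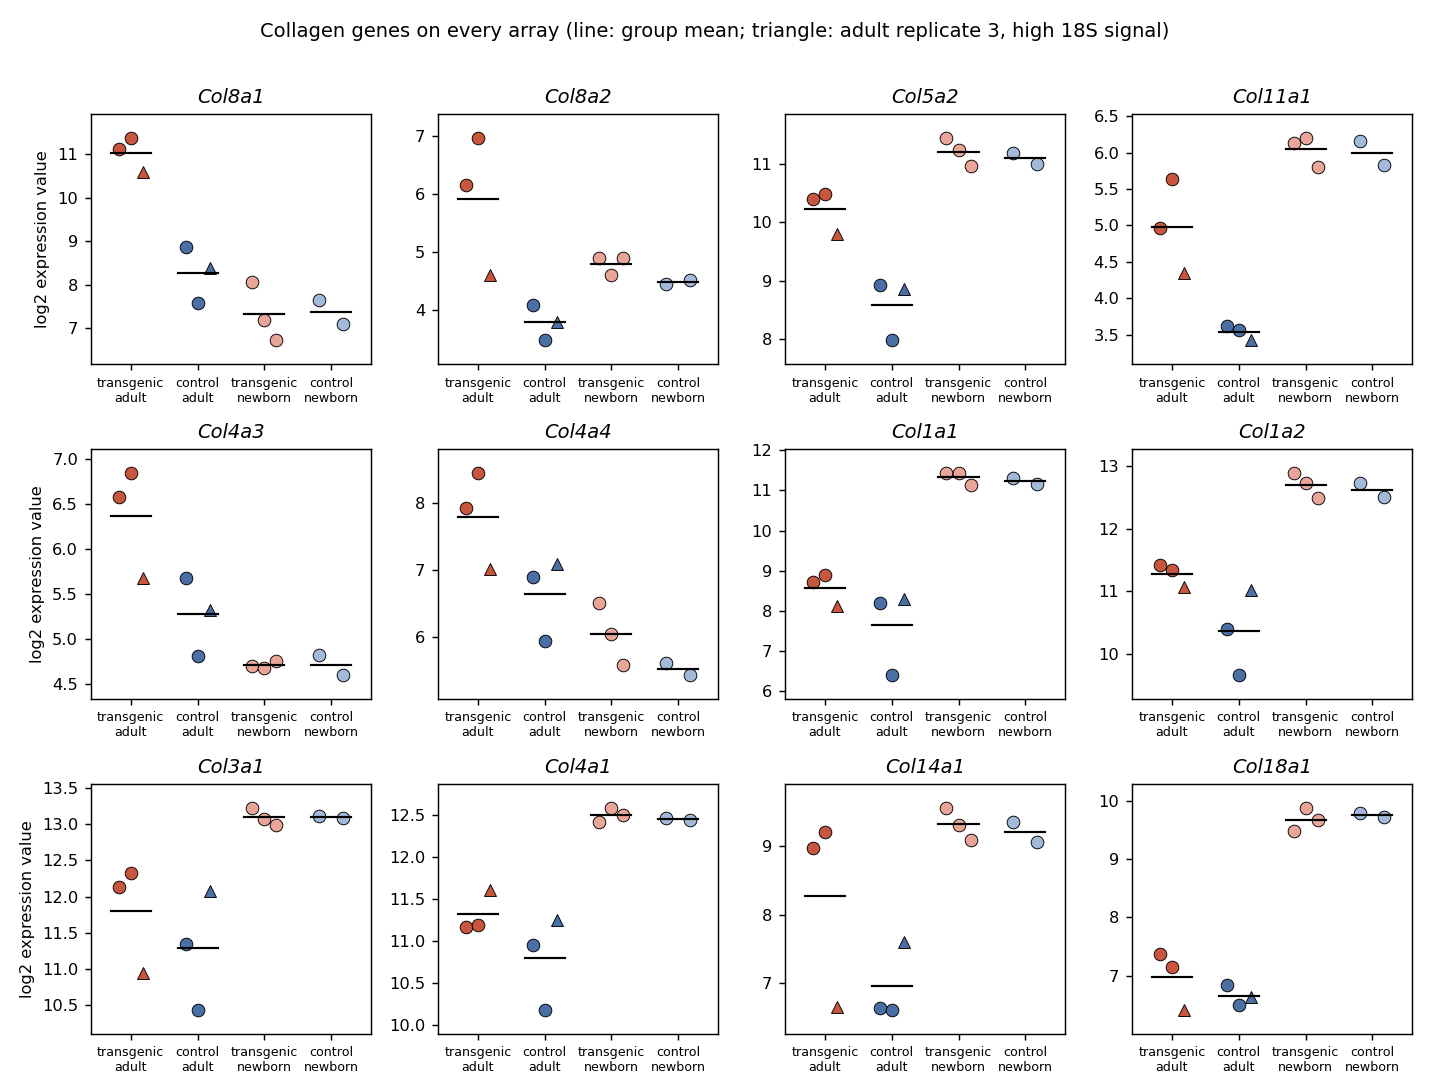
Log2 expression values (y axis, a separate scale per gene) of 12 collagen genes on each of the 11 arrays, by group along the x axis. Lines are group means and triangles are the adult arrays with high 18S signal. Col8a1 is at 10.58 or above on all transgenic adult arrays and at 8.87 or below on all other arrays, while Col1a1, Col1a2, Col3a1 and Col4a1 are highest in newborns.

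The adult result depended on replicate 3. Without both of its arrays, 19 of 42 collagens rose and 0 fell, where 7.41% of all genes were higher. The 5 genes named above remained among them, with differences of 3.02 (Col8a1), 2.77 (Col8a2), 1.98 (Col5a2), 1.71 (Col11a1) and 1.47 (Col4a3). The additions were the interstitial chains Col1a1 (1.497, adjusted p = 0.0412), Col1a2 (1.35, adjusted p = 0.00278), Col3a1 (1.34, adjusted p = 0.00470) and Col5a1 (0.85, adjusted p = 0.0122), and the basement membrane chains Col4a2 (0.53), Col4a4 (1.77) and Col4a5 (0.69). Also added were Col6a1 (0.88), Col6a2 (0.91), Col14a1 (2.47, adjusted p = 3.79e-05), Col15a1 (0.95), Col16a1 (0.71), Col18a1 (0.60) and Col22a1 (0.61). This setting compares 2 arrays with 2.

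Replicate 3 alone sets 1 transgenic array against 1 control array, with no test. Of the 19 genes, 9 were higher and 10 lower on its transgenic array. Col8a1 (by 2.20), Col5a2 (0.95), Col11a1 (0.92), Col8a2 (0.82), Col16a1 (0.53), Col4a2 (0.48) and Col4a3 (0.35) kept their direction clearly, and Col22a1 and Col1a2 stood at 0.08 and 0.06. Col15a1 fell furthest the other way, with a difference of -1.79, followed by Col6a2 (-1.24), Col3a1 (-1.14), Col6a1 (-1.01) and Col14a1 (-0.95). Col6a3, which did not pass in either setting, differed by 0.47 in replicates 1 and 2 and by -2.26 in replicate 3. Over all 42 genes, 34 were higher in the transgenic mean of replicates 1 and 2 (median 0.37, all genes 0.01) and 18 in replicate 3 (median -0.07, all genes -0.02). Of all 18194 genes, 9531 were higher in replicates 1 and 2 and 8541 in replicate 3. Replicate 3 had the opposite sign for 16 of 42 collagens and for 6771 of 18194 genes, a similar share. The turn of sign is thus not read as particular to collagens. With 18S signal as a factor in the fit of all arrays, 8 collagens rose, namely the 5 above and Col1a2, Col4a2 and Col16a1, where 7.98% of all genes were higher.

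**Figure D3:**
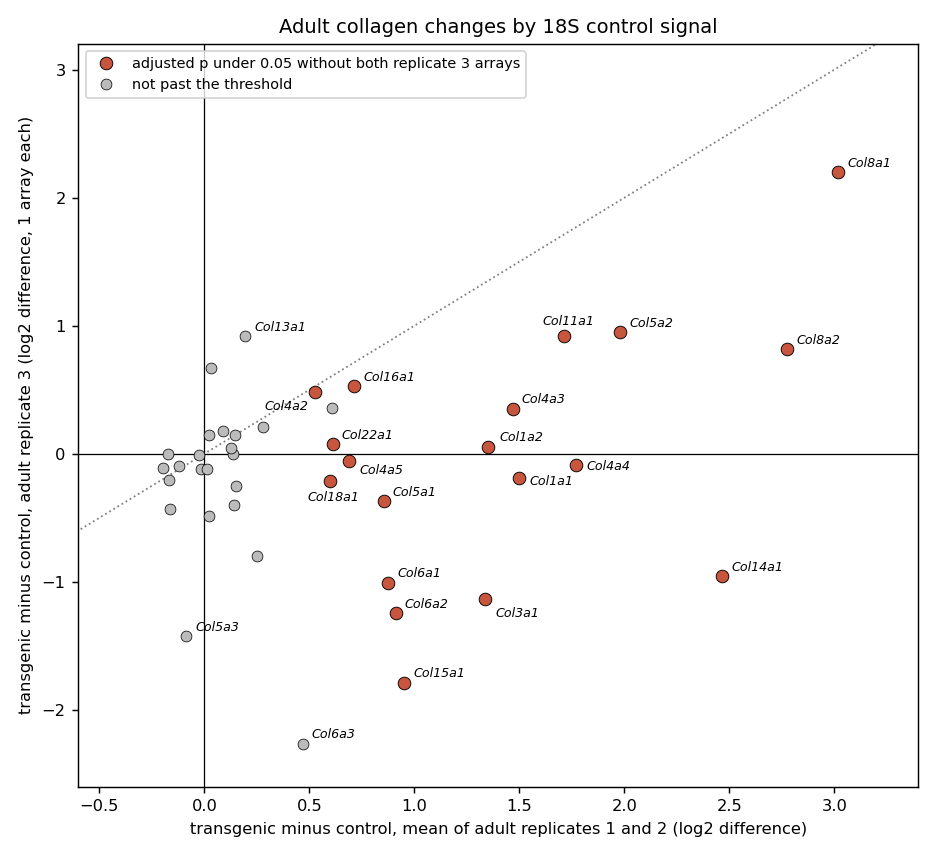
Transgenic minus control difference (log2 units) of the 42 collagen genes in adult replicate 3 (y axis, 1 array each) against the mean of adult replicates 1 and 2 (x axis). Red points passed the test without replicate 3, and the dotted line marks equal differences. Col8a1 lies at 3.02 and 2.20, whereas Col15a1, at 0.95 and -1.79, and Col14a1, at 2.47 and -0.95, change sign.

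In newborns no collagen passed the test: 0 of 42 were called, 0 had an unadjusted p under 0.05, and over all genes 0.0% were called (198 with an unadjusted p under 0.05). Differences ranged from -0.18 (Col26a1) to 0.52 (Col4a4), with a median of 0.09 beside 0.00 over all genes. The 3 members with the smallest p were Col6a5 (0.20), Col23a1 (0.25) and Col9a3 (0.21), each at adjusted p = 0.999985. Col6a5 read 2.76, 2.62 and 2.64 in transgenic newborns and 2.32 and 2.62 in control newborns, which is the lowest part of the scale. Col23a1, a transmembrane collagen, read 7.07, 7.58 and 7.00 in transgenic newborns and 7.16 and 6.78 in control newborns. Col9a3, a chain of the cartilage FACIT of type 9, read 5.23, 5.79 and 5.40 in transgenic newborns and 5.17 and 5.37 in control newborns. The groups overlapped for each of these 3 genes. Half-widths of the 95% intervals had a median of 0.465 and a maximum of 1.36. In this fit, differences of the size seen for Col4a3 in adults were thus not detectable for every member. The widths rest on the spread shared by both ages, with a median residual SD of 0.211 in adults and 0.106 in newborns. They are not the precision of the newborn arrays alone.

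None of the 5 genes that rose in adults passed the test in newborns. Col8a1 read 8.05, 7.18 and 6.74 in transgenic newborns and 7.65 and 7.11 in control newborns, and Col5a2 read 11.44, 11.23 and 10.96 in transgenic newborns and 11.18 and 11.00 in control newborns, with overlap in both genes. Col8a2 read 4.90, 4.62 and 4.90 in transgenic newborns and 4.46 and 4.52 in control newborns. Its groups did not overlap, but the difference of 0.32 did not pass (limma adjusted p = 0.999985). Of all 18194 genes, 2019 were higher in transgenic newborns without overlap. The test of the difference itself, the adult minus the newborn effect, called 0 of 42 collagens (0.687% of all genes). An unadjusted limma p under 0.05 was seen for 6 of the 42, beside 1819 of all 18194 genes. Col8a1 was nearest at 2.80 (SE 0.57, adjusted p = 0.0575), followed by Col5a2 at 1.52 (adjusted p = 0.123) and Col11a1 at 1.40 (adjusted p = 0.170). Without both adult replicate 3 arrays, 10 were called, all with the larger effect in adults: Col14a1, Col8a2, Col11a1, Col5a2, Col8a1, Col4a5, Col15a1, Col4a3, Col1a2 and Col3a1. Over all genes 2.65% were called with a larger effect in adults in that setting.

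More members passed the test with age than with the transgene label. In control hearts 19 of 42 collagens (45.2%) were lower in adults than in newborns and 0 were higher, where 18.1% of all genes were lower, 14.9% higher and 33.0% called in either direction. The median was -0.68, beside 0.09 over all genes. Of these falls 7 were fibrillar, 4 basement membrane, 3 FACIT, 2 transmembrane, and 1 each beaded filament, multiplexin and Col26a1. Adult levels were lowest relative to newborns for Col1a1, with 8.20, 6.42 and 8.31 in adult controls and 11.31 and 11.17 in newborn controls. That difference was -3.60 (SE 0.46, 12.1-fold lower, adjusted p = 0.000204). Col1a2 differed by -2.26, with 10.39, 9.67 and 11.02 in adult controls and 12.73 and 12.51 in newborn controls. No adult array reached the newborn range for either type 1 chain. Without overlap, 22 of 42 collagens were lower and 8 higher in adult controls, beside 5184 and 6387 of all 18194 genes.

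Col18a1 read 6.83, 6.49 and 6.63 in adult controls and 9.79 and 9.73 in newborn controls, with little spread at either age (-3.11, SE 0.24, 8.62-fold lower, adjusted p = 6.22e-06). Of the 3 type 5 chains, 2 fell: Col5a2 differed by -2.50, with 8.92, 7.99 and 8.86 in adult controls and 11.18 and 11.00 in newborn controls. Col5a1 differed by -2.49, with 8.61, 8.18 and 8.78 in adult controls and 11.04 and 10.99 in newborn controls. Both chains were lower in every adult control heart than in any newborn control, whereas Col5a3 differed by 0.67 without passing (adjusted p = 0.0995). Col11a1 differed by -2.46, with 3.62, 3.56 and 3.43 in adult controls and 6.16 and 5.83 in newborn controls. Further falls were Col14a1 (-2.26), Col23a1 (-2.18), Col3a1 (-1.81), Col4a1 (-1.66), Col4a2 (-1.63), Col4a5 (-1.45), Col9a1 (-1.32), Col4a6 and Col6a2 (-1.22 each), Col13a1 (-1.07), Col16a1 (-0.81), Col26a1 (-0.75) and the low-level Col24a1 (-0.66). The call of Col6a2, the single one among the beaded filaments in controls, held in 8 of 19 alternative fits, and that of Col24a1 in 12 of 18. Of 19 other probe sets of called genes, 17 had the same sign and 15 also fell. The exceptions in sign were a Col9a1 probe set (0.19) and a Col26a1 probe set (0.06), neither called.

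In transgenic hearts 18 collagens were lower and 4 higher in adults than in newborns, with a median of -0.35. Over all genes 19.7% were lower, 19.7% higher and 39.4% called in either direction. Col8a1 rose most, with 11.12, 11.37 and 10.58 in adult transgenic and 8.05, 7.18 and 6.74 in newborn transgenic hearts (3.70, SE 0.38, adjusted p = 3.76e-05). Col4a4 rose by 1.75, with 7.93, 8.46 and 7.02 in adult transgenic and 6.52, 6.05 and 5.59 in newborn transgenic hearts. Col4a3 rose by 1.66, with 6.59, 6.85 and 5.68 in adult transgenic and 4.70, 4.68 and 4.76 in newborn transgenic hearts. These minor type 4 chains thus moved the opposite way to Col4a1 (-1.18) and Col4a2 (-1.25) within the same hearts. The directions were the same in controls, where Col4a1 and Col4a2 also fell. Col4a4 read 6.91, 5.95 and 7.10 in adult controls and 5.62 and 5.44 in newborn controls (1.12, not passing). Col4a3 read 5.68, 4.81 and 5.33 in adult controls and 4.83 and 4.61 in newborn controls, with overlap. Col20a1, another FACIT, rose by 0.67, with 7.19, 6.83 and 7.12 in adult transgenic and 6.27, 6.44 and 6.44 in newborn transgenic hearts.

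The falls in transgenic hearts were led by Col1a1 (-2.76), with 8.73, 8.89 and 8.12 in adults and 11.44, 11.43 and 11.14 in newborns. Col18a1 differed by -2.70, with 7.36, 7.15 and 6.42 in adults and 9.48, 9.88 and 9.67 in newborns. Col23a1 differed by -2.33, with 4.72, 5.02 and 4.91 in adults and 7.07, 7.58 and 7.00 in newborns. For none of these 3 genes did adult and newborn arrays overlap. Without overlap, 20 of 42 collagens were lower and 5 higher in adult transgenic hearts, beside 4487 and 5451 of all 18194 genes. Col5a1 differed by -2.15, with 9.04, 9.46 and 8.41 in adults and 11.08, 11.28 and 10.98 in newborns. Col6a3, the large chain of type 6 filaments, differed by -1.93, with 9.16, 9.09 and 7.06 in adults and 10.55, 10.48 and 10.07 in newborns, so that the adult array with high 18S signal was by far the lowest. Col9a1, a cartilage FACIT chain, differed by -1.51, with 4.66, 4.14 and 4.13 in adults and 5.45, 6.30 and 5.69 in newborns. Another Col9a1 probe set, at a similar mean level, differed by 0.32 without passing. The other 12 falls lay between -1.42 (Col1a2) and -0.81 (Col13a1). Among them the call of Col6a2 held in 9 of 19 alternative fits, and another Col26a1 probe set of lower level was called in the opposite direction (0.35, adjusted p = 0.0183 over all probe sets). Of 25 other probe sets of called genes, 23 had the same sign and 19 were called in the same direction.

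Of the collagens called with age, 17 were called in the same direction in both genotypes, 0 in opposite directions. They made up 89.5% of the 19 called in controls and 77.3% of the 22 called in transgenic hearts. Over all genes, 4311 were called in the same direction and 36 in opposite directions, which was 71.8% of the 6006 called in controls and 60.2% of the 7161 called in transgenic hearts. Of all genes that were lower in adult controls, 78.0% were also lower in adult transgenic hearts. Nothing particular to collagens is read from this overlap. All 17 shared collagen calls were falls, Col6a2 among them, and 13 were larger in controls. Col14a1 and Col16a1 were called in controls alone, and Col4a3, Col4a4, Col6a3, Col8a1 and Col20a1 in transgenic hearts alone. The test of the difference between genotypes, which is the age-by-label test above, called none of these 7 with all arrays. In controls Col6a3 also fell (-1.24) and Col4a4 also rose (1.12), each without overlap of arrays but without passing. Col4a3 and Col20a1 were nominally higher in adult controls as well, with overlap. Side by side, the adult minus newborn difference of Col8a1 was 3.70 in transgenic and 0.90 in control hearts, and that of Col8a2 was 1.11 in transgenic and -0.69 in control hearts. For Col5a2 it was -0.98 in transgenic and -2.50 in control hearts, and for Col11a1 -1.06 in transgenic and -2.46 in control hearts. In the probe sets used, the age difference of Col1a1 was larger than that of Col1a2 by 1.33 in transgenic hearts (exact permutation test, p = 0.1) and by 1.34 in controls (exact permutation test, p = 0.2), where the group sizes allow no smaller p. Other probe sets gave another order: a Col1a2 probe set differed by -2.02 in transgenic hearts and -3.57 in controls, against -2.11 in transgenic hearts and -2.76 in controls for the other Col1a1 probe set. The 2 chains of type 1 collagen are thus not shown to differ in their change with age.

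**Figure D4:**
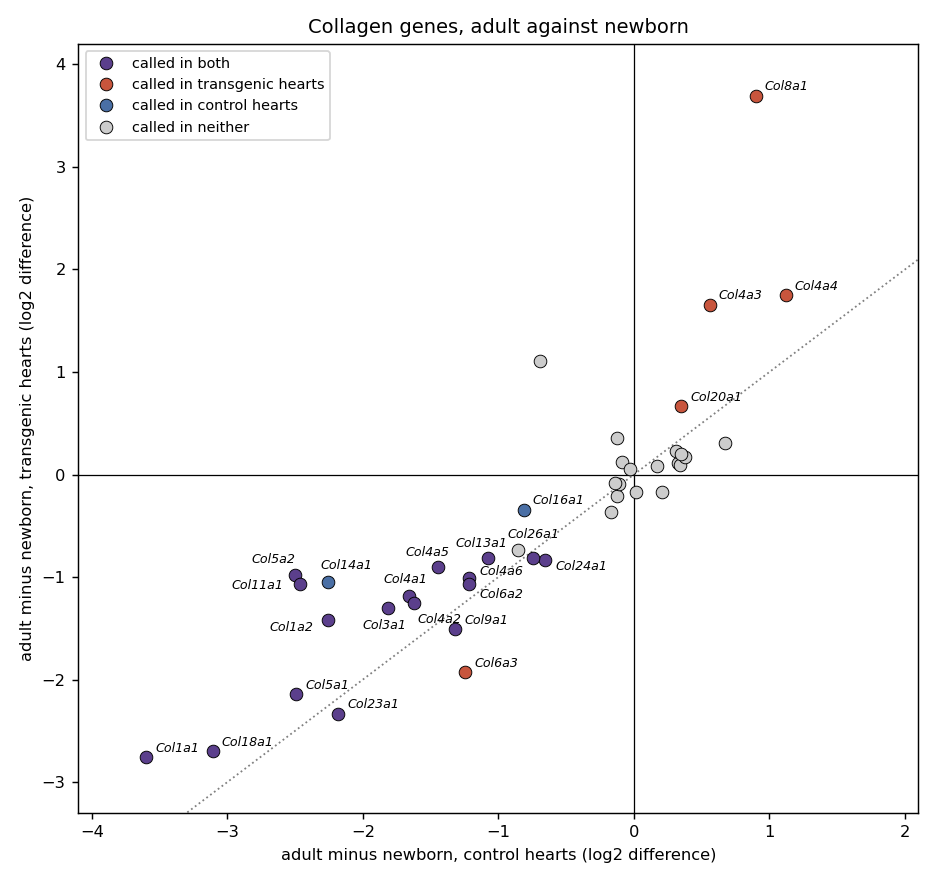
Adult minus newborn difference (log2 units) of the 42 collagen genes in transgenic hearts (y axis) against control hearts (x axis). Colours show in which genotype a gene was called, and the dotted line marks equal differences. Most called genes lie in the lower left, led by Col1a1 at -3.60 in controls and -2.76 in transgenic hearts, while Col8a1 lies alone at the top at 3.70.

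Genes for making and cross-linking collagen were followed as a list of 35, of which 31 were measured. In transgenic adults 6 rose, 0 fell and 25 did not pass, with a median of 0.13. The rises made up 19.4% of the list, where 4.16% of all genes were higher. Lox, the lysyl oxidase that starts cross-linking of fibrillar collagen, read 7.74, 8.02 and 9.25 in transgenic adults and 5.42, 4.96 and 5.59 in control adults. It was higher on every transgenic array, including replicate 3 (3.01, SE 0.39, 8.08-fold, adjusted p = 0.00142). P3h2, a prolyl 3-hydroxylase that acts on type 4 collagen, read 6.95, 7.55 and 7.27 in transgenic adults and 4.94, 5.08 and 5.90 in control adults (1.95, SE 0.24, adjusted p = 0.000965). The others were Loxl3, another lysyl oxidase (1.34, adjusted p = 0.0259), Pcolce2, an enhancer of procollagen trimming (1.09, adjusted p = 0.0184), Tent5a, a poly(A) polymerase acting on collagen transcripts in mouse osteoblasts (1.06, adjusted p = 0.0429), and P4hb, a subunit of prolyl 4-hydroxylase (0.47, adjusted p = 0.0324). The next smallest p belonged to P3h4 (-0.58, adjusted p = 0.0579) and Pcolce (1.06, adjusted p = 0.0596), neither of which passed.

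Serpinh1, the collagen chaperone, differed by -0.60 without passing: it read 11.12, 10.84 and 8.95 in transgenic adults and 10.71, 11.12 and 10.87 in control adults, so the low value was that of the transgenic array with high 18S signal. It was added after the values were seen. Without both replicate 3 arrays 12 of the 31 genes rose and 0 fell, where 7.41% of all genes were higher. Loxl1 was among the 12, at 1.80 (limma adjusted p = 0.000157). Newborn hearts had 0 calls in the list. With age, 4 of the 31 were higher and 11 lower in adult than in newborn controls. Over all genes 14.9% were higher and 18.1% lower in that comparison. In these controls Lox differed by -2.91 and Pcolce2 by 3.03. In transgenic hearts 7 were higher and 10 lower in adults, and Lox was not among them with all arrays. Over all genes 19.7% were higher and 19.7% lower. Without both replicate 3 arrays Lox was called lower in adult than in newborn transgenic hearts (-0.84, limma adjusted p = 0.0426). Of 9 measured collagen receptors, 0 were called in adults, where 7.09% of all genes were called. An unadjusted limma p under 0.05 was seen for 4 of the 9, beside 3669 of all 18194 genes. Itgb1, the integrin beta1 chain, was nearest at 0.46 (limma adjusted p = 0.0931).

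Of 10 fibroblast markers 3 rose, 0 fell and 7 did not pass in transgenic adults (Mfap4 2.96, Serping1 1.16, Tcf21 0.82), where 4.16% of all genes were higher. Their mean log2 level was 10.41, 10.48 and 9.83 in transgenic adults and 9.37, 9.31 and 9.78 in control adults, with replicate 3 nearly equal between the groups. Of 6 markers of activated fibroblasts 2 rose (Postn 3.18, Acta2 1.56), with mean log2 levels of 9.51, 9.45 and 8.54 in transgenic adults and 8.12, 7.52 and 8.23 in control adults. Newborn hearts lay above both, at 9.96 to 10.43. The log2 of the summed level over these 6 genes was 13.16 to 13.56 in transgenic adults and 11.00 to 11.94 in control adults. Without both replicate 3 arrays 6 of 10 fibroblast and 4 of 6 activated fibroblast markers rose and 0 fell. Over all genes 7.41% were higher in that setting. With age, the 10 fibroblast markers had 3 rises and 1 fall in transgenic hearts (median 0.45) and 2 rises and 3 falls in controls (median 0.17), beside the collagen medians of -0.35 and -0.68. The 6 activated fibroblast markers had 3 falls in transgenic hearts (median -0.62) and 5 in controls (median -2.84), with 0 rises. Over all genes 19.7% rose and 19.7% fell with age in transgenic hearts, and 14.9% rose and 18.1% fell in controls. The part of these markers in the collagen results was not tested.

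Of 8 cartilage markers 2 rose in transgenic adults, Comp (2.97, adjusted p = 0.00416) and Sox9 (0.59, adjusted p = 0.0222). Matn1, a defining cartilage matrix gene, stayed at 2.88 to 3.35 in transgenic adults and 2.85 to 3.05 in control adults, in the low part of the scale. The log2 summed level of the 8 genes was 8.50 to 10.45 in transgenic adults and 7.37 to 8.02 in control adults. Comp made up most of that sum, at 8.91, 10.27 and 7.88 in transgenic adults. Mean log2 levels of the 8 genes were 4.66, 4.91 and 4.36 in transgenic adults and 4.47, 4.08 and 4.31 in control adults. Of the 8 differences 4 were positive and 4 negative, the lowest being Cnmd at -0.75 without passing. Of 7 macrophage markers 2 rose, of 7 mural cell markers 2 rose and 2 fell, and of 7 endothelial markers 0 rose and 1 fell. Of 3 Schwann cell markers 1 rose, and of 5 epicardial markers 1 rose. Over all genes 4.16% were higher in transgenic adults and 7.09% were called in either direction. Without both replicate 3 arrays 5 of 7 macrophage markers rose and 0 fell. In that setting 1 mural marker rose and 2 fell, and 0 endothelial markers rose and 1 fell. For cartilage 2 rose, for Schwann cells 1 and for the epicardium 0, with 0 falls. The share of all genes that were higher was then 7.41%. Mean log2 levels of 3 atrial markers were 10.53, 6.59 and 6.52 in transgenic adults and 10.10, 10.38 and 12.24 in control adults, with 0 called. For 2 adipocyte markers they were 3.57 to 3.81 in transgenic adults and 4.05, 4.22 and 7.76 in control adults, and control replicate 3 was the high one. The part of these markers in the collagen values was not tested.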

How the data were processed

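Total RNA from the left ventricle was hybridised as biotinylated cRNA to Affymetrix mouse arrays, per the labels' protocols. The deposited values are on the log2 scale. The submitters' processing notes name RMA, affy and limma, without versions or roles. Depth does not apply to arrays, so their number limits the precision. Of 45101 probe sets, 34958 carried 1 symbol, 932 several and 9211 none; 34754 matched the RefSeq gene table (GRCm38.p6), with 0 symbols changed. Among the 18194 genes, 9012 had more than 1 probe set, and the probe set with the highest mean was used.

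The 11 arrays entered 1 group-means model in limma (version 3.58.1, R 4.3.3; 7 residual and 3.85 prior degrees of freedom). The fit was tested on simulated data. Tests were 2-sided, and a call is a Benjamini-Hochberg adjusted p under 0.05 over all genes. The median residual SD was 0.211 log2 units in adults and 0.106 in newborns, and both ages share the spread. Each difference is of group means. Members, classes, lists and chain pairs (10 pairs) were chosen with earlier results of these data known. Values by array are given for called adult collagens without overlap, the 3 newborn members with the smallest p and the 6 rising and 6 falling members with the largest change in each age comparison.

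Correlations of same-numbered arrays' deviations from their group means were 0.31, -0.06 and 0.45 in adults and 0.18 and -0.15 in newborns, so numbers were not taken as pairs. Alternatives were a replicate block, a filter on low values, other uses of probe sets, another variance model, only the compared groups, cyclic loess, the 18S signal, a threshold on the fold change (1.5) and each array left out in turn. Col28a1 and Col6a6, and Fkbp10, Adamts2, Adamts14 and Loxl2 of the list for making collagen, are not analysed here.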

Additional observations from a re-analysis of the deposited data

How the results depend on the processing

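The number of collagens called in adults, 5 with all arrays, was 8 with probe sets averaged per gene, 8 with all probe sets tested, 2 with only the compared groups in the fit, 19 without both adult replicate 3 arrays and 8 with the 18S signal as a factor. Leaving out 1 array gave 3 to 14: 14 without transgenic adult replicate 3 and 3 without transgenic adult replicate 1 or control adult replicate 2. All these calls were rises. Of all genes, 4.16% were higher with all arrays and 1.41% with only the compared groups. The share was 7.41% without both replicate 3 arrays and 7.98% with the 18S factor. For the other adult settings the share is not given here, so whether their counts move with those of all genes is not shown. With the replicate number as a block, 6 collagens were called in adults, 0 in newborns, 19 with age in controls and 22 in transgenic hearts. For the difference between ages, 0 with all arrays, the count was 1 with the replicate block, 1 with the filter on low values, 1 with averaged probe sets, 1 with trend and robust variance (Col8a1 each time), 2 with the 18S factor and 10 without the replicate 3 arrays; leaving out 1 array gave 0 to 6, with 6 without transgenic adult replicate 3. Only the compared groups cannot give that contrast. Over all genes 0.687% were called for that difference with all arrays. Without the replicate 3 arrays 2.65% were called with a larger effect in adults. The genes for making collagen, 6 in adults, numbered 3 with only the compared groups, 12 without the replicate 3 arrays and 13 with the 18S factor, and 2 to 13 when 1 array was left out (2 without transgenic adult replicate 2, 3 without transgenic adult replicate 1 or control adult replicate 2, 13 without transgenic adult replicate 3). The cause of these shifts was not tested. For the other settings of the difference, and for the alternative fits with age, shares over all genes are not given here. Whether those counts move with those of all genes is thus not shown either. Leaving out 1 array gave 13 to 23 calls with age in controls, 19 to 23 in transgenic hearts and 0 in newborns, and a newborn control left alone is assumed to vary like the other groups. Of the values of named genes under alternatives, 441 kept their direction and side of the threshold and 14 kept the direction alone. These genes were picked for large called changes or, in newborns, for the smallest p among members that were not called. The total is thus partly set by that choice and does not measure how stable a call is. Of 19 alternatives each, Col8a1 and Col5a2 were called in adults in 19, Col11a1 in 18 (adjusted p up to 0.0646), Col8a2 in 16 (up to 0.111) and Col4a3 in 9 (up to 0.188).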
